A study of Mus musculus with 4 samples.

Results

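Oocyte growth under deletion of Dcaf13 was read as the difference between fully grown and growing mouse oocytes of the deletion genotype. Its members are the genes at 5 FPKM (sequenced fragments per length of transcript, relative to all mapped fragments of the library) or more in the growing or the fully grown deletion library, which were 7957 of the 23235 genes of the table. The series measured polyadenylated RNA in 4 groups with 1 library of 10 oocytes each, by Smart-seq2, which makes full-length cDNA from the RNA of very few cells. Control mice were Dcaf13fl/fl, with both alleles flanked by loxP sites but intact. Deletion mice were Dcaf13fl/fl;Gdf9-Cre, in which the promoter of the oocyte growth factor gene Gdf9 drives Cre recombinase in oocytes, and all mice had a C57B6 background. Mice gave growing oocytes at about 14 days of age and fully grown oocytes at about 23 days, the latter 48 h after 5 IU of PMSG (pregnant mare serum gonadotropin, a hormone that stimulates follicle growth). Stage, age and PMSG therefore cannot be told apart. With 1 library in each group the error is unknown and differences could not be tested.

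Dcaf13 encodes a nucleolar WD40-repeat protein of the small subunit processome, the particle in which 18S ribosomal RNA is made, and it also brings substrates to CRL4, a ubiquitin ligase. A growing mouse oocyte transcribes and stores the RNA and ribosomes that the egg and early embryo will use. Transcription falls silent towards the end of growth, so that later development draws on stored RNA. FPKM is a share of the library. A gene called lower held a smaller share, which does not give its amount per oocyte.

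A gene was called higher or lower in fully grown than in growing oocytes when log2(FPKM + 1) differed by at least 1. The rule compares a pair of libraries, and the pseudocount of 1 understates the change of low genes. FPKM values below are given in a fixed order, first growing control, then growing deletion, then the control and the deletion library of fully grown oocytes, and each change is fully grown minus growing in log2(FPKM + 1). Where a pair of changes is given, the first is of the deletion and the second of controls. A called gene was chosen on the 2 deletion libraries, so their high or low place among the 4 is in part fixed by that choice. The 4 libraries were alike in summed FPKM (649397 to 678437) and in genes at 1 FPKM or more (10469 to 11048). All 20 oocyte markers reached 5 FPKM in some library. Of the 16 markers of granulosa and cumulus cells, the somatic cells around the oocyte, 3 reached 5 FPKM in some library (Cyp19a1, Inha and Nr5a2). All 16 summed to 18.1 FPKM in the growing deletion library against 28.1 to 35.6 in the other 3, and Cyp19a1 was the largest part of each sum. Cyp19a1, which encodes aromatase, stood at 17.7, 7.75, 18.99 and 16.8 FPKM and was itself called higher (1.03). Inha stood at 6.53, 2.16, 2.4 and 4.99 FPKM. Nr5a2, at 5.87, 4.88, 3.9 and 3.62 FPKM, was not lowest in the growing deletion library. Markers of theca and stroma (10), blood (7) and surface epithelium (5) stayed under 5 FPKM in every library, and of 5 endothelial markers only Pecam1 reached it. The part of these cells in the results was not tested.

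Dcaf13 (chromosome 15, plus strand, 38944420 to 38978401, mm9) stood at 96.1, 38.9, 160.2 and 64.01 FPKM. It was lower in the deletion library than in the control library at both stages, and higher in the fully grown than in the growing library of both genotypes. Its growth change was 0.71 in the deletion and 0.73 in controls, short of the size rule. FPKM sums over the gene, so loss of the loxP-flanked part cannot be read from it.

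Growth in the deletion oocytes gave more decreases than increases. Of the 7957 members, 215 were higher (2.7%) and 696 lower (8.75%). In controls 85 of 7661 genes were higher (1.11%) and 235 lower (3.07%). With a pseudocount of 5 the counts were 99 higher and 267 lower in the deletion, and 53 and 53 in controls. The median member barely moved (-0.07), with 3509 genes above 0 and 4448 below. Most calls lay near the threshold, since a change of at least 1.5 was reached by 79 higher and 237 lower genes, and one of at least 2 by 45 and 94. The middle of the distribution was narrow, from -0.45 at the lower to 0.24 at the upper quartile.

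**Figure D1:**
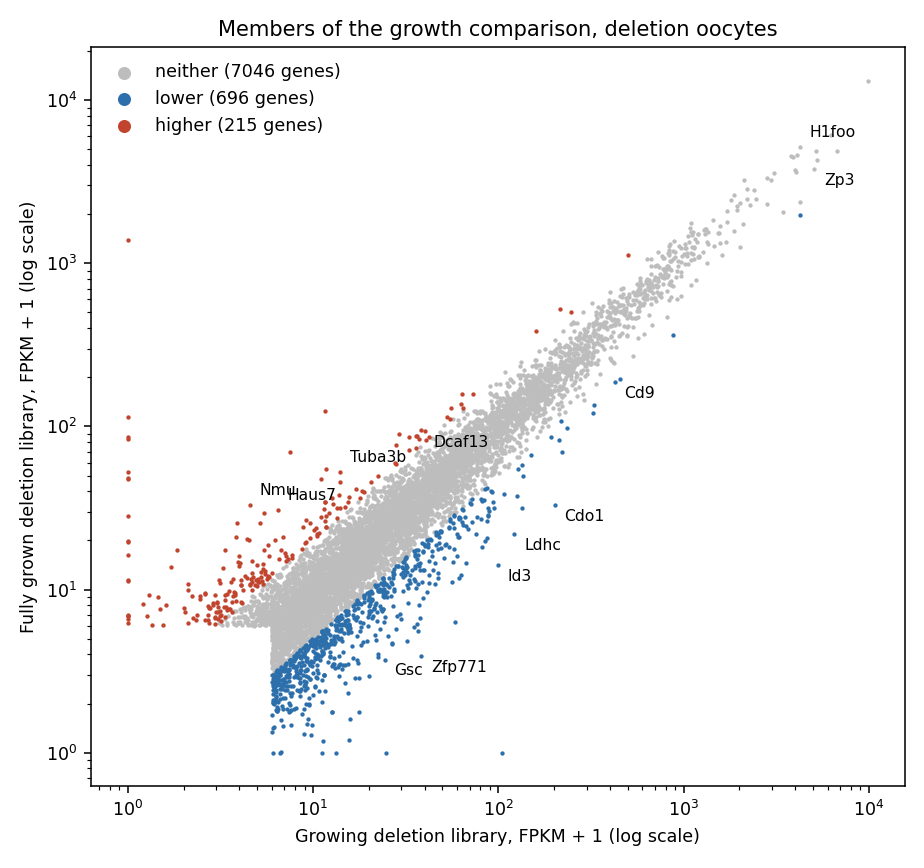
Each point is 1 of the 7957 members, with FPKM + 1 in the growing deletion library on the x axis and in the fully grown deletion library on the y axis, both on log scales. The 696 lower genes lie below the grey band and the 215 higher genes above it, and the most abundant oocyte genes (H1foo, Zp3) lie within it.

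The 15 largest decreases among genes at 20 FPKM or more are given with 6 genes of transcription factors and their inhibitors first, a grouping made after their values were seen. Zfp771, a zinc finger gene (chromosome 7, plus strand, 134388040 to 134398315, mm9), stood at 16.6, 37.4, 4.48 and 2.901 FPKM, a change of -3.30 against -1.68 in controls. Zfp707, another zinc finger gene, stood at 53.97, 57.3, 7.95 and 5.31 FPKM, and its change was -3.21 against -2.62. Both fully grown libraries were low for these genes. For Zfp771 the growing deletion library was also well above the growing control, while for Zfp707 the growing libraries were close. Id3, which encodes a protein that blocks helix-loop-helix factors from binding DNA, stood at 107, 98.1, 20.3 and 13.1 FPKM (-2.81 and -2.34). Tgif1, a homeobox gene whose protein restrains TGF-beta signalling, was at 24.99, 31.1, 7.58 and 3.81 FPKM (-2.74 and -1.60). In both, the 2 growing libraries were close and the fully grown deletion library was the lowest of the 4. Gsc, the goosecoid homeobox gene, was at 8.004, 23.4, 4.15 and 2.72 FPKM (-2.72 and -0.81), with its high value in the growing deletion library alone. Snai1, a zinc finger repressor gene, was at 26.1, 36.8, 5.899 and 5.73 FPKM (-2.49 and -1.97).

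The other 9 of the 15 largest decreases encode proteins of other kinds. Cdo1, which encodes cysteine dioxygenase, had nearly equal values in the growing libraries and was lowest in the fully grown deletion library, at 201, 201, 61.5 and 31.9 FPKM (-2.62 and -1.69). Ldhc, the germ cell lactate dehydrogenase gene, went the same way, with 95.8, 121, 27.9 and 20.8 FPKM (-2.49 and -1.75). Pdgfa, which encodes a chain of platelet-derived growth factor, stood at 5.19, 25.6, 2.81 and 3.65 FPKM (-2.52 and -0.70), and like Gsc it was high in the growing deletion library only. The same was seen, less sharply, in Snapc2, a subunit gene of the complex that activates small nuclear RNA genes, at 7.78, 21.4, 3.405 and 3.05 FPKM, and in Arhgap9, a GTPase-activating protein gene, at 9.76, 21.4, 3.49 and 2.83. Dpf2, a subunit gene of the BAF chromatin remodelling complex, stood at 16.7, 33.9, 5.42 and 4.85 FPKM. Yrdc, whose enzyme takes part in a modification of tRNA, was at 20.1, 35.4, 4.96 and 5.17 FPKM, and the zinc importer gene Slc39a1 at 15.3, 25.6, 3.63 and 3.67. For these 3 genes the fully grown libraries differed little. Crym, which encodes a thyroid hormone-binding protein, stood at 17.5, 35.99, 6.96 and 4.605 FPKM (-2.72 and -1.21). All 15 genes were lower over growth in controls as well in sign, and 3 of them, Gsc, Pdgfa and Snapc2, were short of the rule there.

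Increases were fewer and led by genes with a low value in growing deletion oocytes. Nmu, which encodes the peptide neuromedin U (chromosome 5, minus strand, 76762520 to 76792802, mm9), stood at 28.7, 3.56, 41.02 and 32.2 FPKM, a change of 2.86 against 0.50 in controls. Olfr288, an olfactory receptor gene, was at 15.7, 2.86, 20.7 and 20 FPKM (2.44 and 0.37). In both genes the growing deletion library was far below the other 3. Rgn, which encodes regucalcin, a calcium-binding protein, stood at 27.8, 4.18, 69.9 and 24.6 FPKM (2.30 and 1.30), and the augmin gene Haus7 at 15.2, 5.44, 20.8 and 29.8 FPKM (2.26 and 0.43). Fam162b (32.1, 10.7, 48.7 and 53.9 FPKM), the defensin gene Defb41 (47.1, 9.99, 36.4 and 46.6) and Cmtm8 (62.4, 28.1, 82.04 and 88.2) had the same single low library. So did Bmp5, which encodes a bone morphogenetic protein (22.7, 5.91, 33.5 and 20.1), Mbd3l2 (39.5, 10.6, 62.2 and 33.5), the potassium channel gene Kcnn2 (30.9, 8.14, 36.4 and 25.8) and Poli, a translesion DNA polymerase gene (14.1, 7.78, 15.2 and 23.3).

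Like Rgn, a few increases were past the rule in both genotypes. Gstk1, a glutathione transferase gene, stood at 4.64, 4.44, 16.8 and 28.3 FPKM (2.43 and 1.66), low in both growing libraries and highest in the fully grown deletion library. Thg1l, whose enzyme adds a guanylate to histidine tRNA, was at 9.74, 13.02, 32.9 and 44.8 FPKM (1.71 and 1.66), and the sodium-proton exchanger gene Nhedc1 at 15.4, 10.6, 36 and 33.2 (1.56 and 1.17). Tuba3b, an alpha tubulin gene, was higher in the deletion (1.91) and had a negative change in controls (-0.64), at 30.2, 13.04, 19.1 and 51.6 FPKM. It has near-identical relatives, and how reads with several matches were counted is not given in the sources used here, so its values are uncertain.

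**Figure D2:**
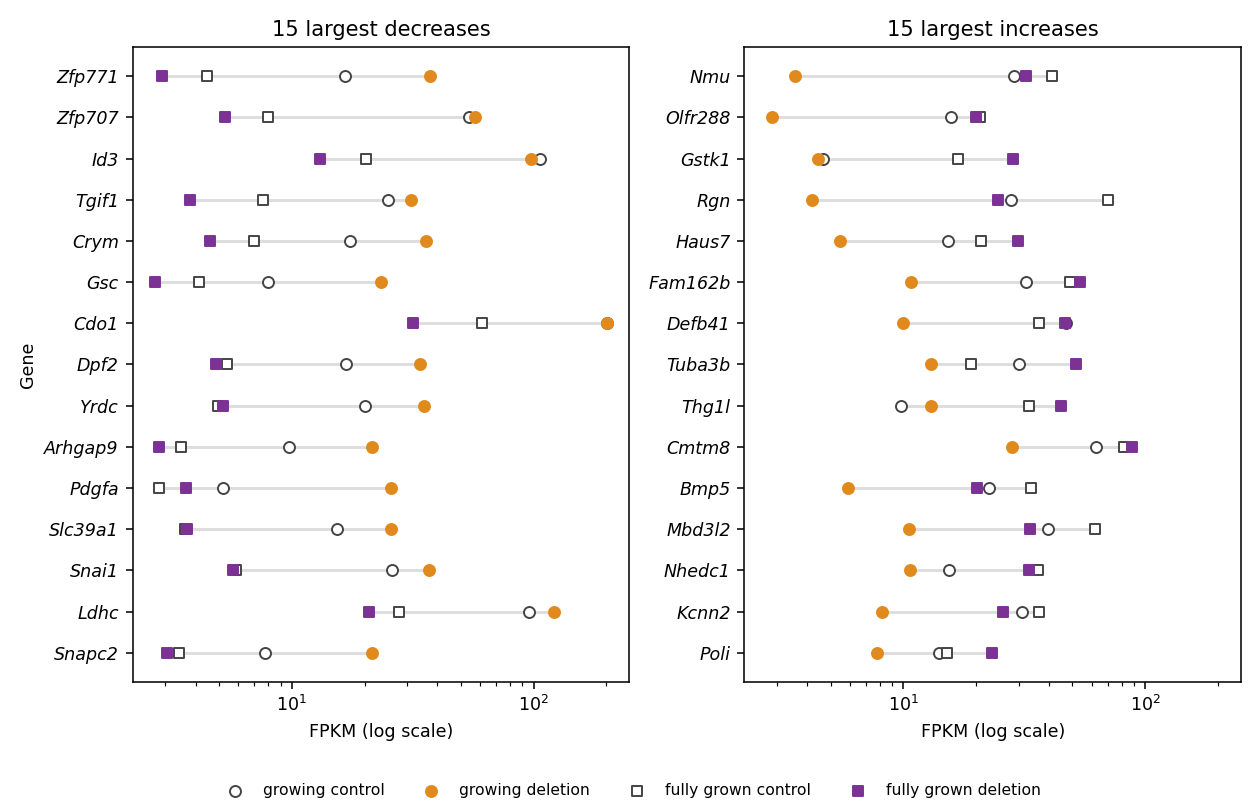
FPKM on a log scale in the 4 libraries for the 15 largest decreases and the 15 largest increases at 20 FPKM or more, with 1 gene per line and 1 symbol per library. In the left panel the filled orange circle (growing deletion) is at or near the highest value of each gene, and in the right panel it is the lowest value of every gene but Thg1l.

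Promoter sequences are shown for 4 of these genes, the decreases Zfp771 and Id3 and the increases Nmu and Gstk1, so that the start regions of genes that moved in opposite directions can be read side by side. Each runs 5′ to 3′ on the gene's strand, from 250 bases before to 50 bases after the RefSeq start (build GRCm38.p6), and capitals mark CG dinucleotides, the targets of DNA methylation.
Zfp771 (chr7:127244276-127244575, plus strand): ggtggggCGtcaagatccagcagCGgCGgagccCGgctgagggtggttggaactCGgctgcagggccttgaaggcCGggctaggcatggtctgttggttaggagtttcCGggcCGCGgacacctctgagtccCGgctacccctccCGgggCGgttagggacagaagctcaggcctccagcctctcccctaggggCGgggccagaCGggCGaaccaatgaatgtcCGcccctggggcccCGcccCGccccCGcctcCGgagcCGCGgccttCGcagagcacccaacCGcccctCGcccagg
Id3 (chr4:136143572-136143871, plus strand): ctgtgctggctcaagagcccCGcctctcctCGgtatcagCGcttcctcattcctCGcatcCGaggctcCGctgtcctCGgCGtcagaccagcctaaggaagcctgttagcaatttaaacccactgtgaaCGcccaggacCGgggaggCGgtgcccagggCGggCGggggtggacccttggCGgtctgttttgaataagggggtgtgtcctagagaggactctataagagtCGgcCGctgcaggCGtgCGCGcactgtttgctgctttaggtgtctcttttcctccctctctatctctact
Nmu (chr5:76363728-76364027, minus strand): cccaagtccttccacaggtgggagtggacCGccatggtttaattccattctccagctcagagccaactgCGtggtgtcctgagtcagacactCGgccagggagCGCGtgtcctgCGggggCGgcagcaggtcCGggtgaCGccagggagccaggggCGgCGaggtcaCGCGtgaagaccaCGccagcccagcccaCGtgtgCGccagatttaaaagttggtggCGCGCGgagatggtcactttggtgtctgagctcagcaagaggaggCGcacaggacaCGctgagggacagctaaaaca
Gstk1 (chr6:42245685-42245984, plus strand): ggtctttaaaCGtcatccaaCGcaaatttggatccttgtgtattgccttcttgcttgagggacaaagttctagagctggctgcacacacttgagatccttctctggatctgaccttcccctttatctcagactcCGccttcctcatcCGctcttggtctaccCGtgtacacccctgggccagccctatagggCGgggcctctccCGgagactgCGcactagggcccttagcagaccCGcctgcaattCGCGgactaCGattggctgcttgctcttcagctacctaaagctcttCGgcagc
The 4 windows held 25, 19, 21 and 13 CG dinucleotides, 0.649, 0.704, 0.714 and 0.585 times the number their C and G content would give. The GC box GGGCGG, searched on both strands, was in all 4 windows and in 64.7% of the 6348 windows of members. It was in 35.9% of all 27025 promoter windows of the RefSeq table. Windows were also read for Gsc and Olfr288 and are not printed. That of Gsc held 25 CG dinucleotides (ratio 0.934) and the GC box. That of Olfr288, a larger increase than Gstk1, held 1 (ratio 0.053) and no GC box, so the 4 printed windows do not stand for all the large changes. A comparison of promoters between higher, lower and other members is void, because the table gave a window for 6348 of the 7957 members (79.8%) and for only 138 of the 215 higher genes.

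Among the 34 gene lists read, 33 had members past the minimum in numbers from 5 to 82, and the 2-cell embryo list had 3. The lists together held 1009 members, of which 18 were higher and 78 lower (1.78% and 7.73%), against 2.7% and 8.75% over all members. The lists were written with earlier results of these data known, so a list's share of calls can be built in by its choice and is a description. The oocyte transcription regulators stood at 6 lower of 21 and none higher, with a median of -0.14. Besides Id3, Tgif1, Gsc and Snai1 the lower members were Tbpl2, a TATA-binding protein of the oocyte, and Figla, the helix-loop-helix activator of zona genes, both picked out after their values were seen. Tbpl2 stood at 23.04, 24.7, 11.6 and 9.35 FPKM (-1.31) and Figla at 134, 191, 83.04 and 84.5 (-1.17). Each was highest in the growing deletion library, with the fully grown libraries close together. Nobox, a homeobox regulator of oocyte genes also picked out after its values were seen, stood at 306, 421, 197 and 243 FPKM, with a negative change short of the rule (-0.79). The 3 most abundant regulators lay within the rule as well. The homeobox genes Obox2 (1313, 1089.8, 2037 and 1760 FPKM) and Obox5 (1117, 893, 1475 and 1365) were higher in both fully grown libraries by less than the rule asks. Zfp57, which guards imprinted methylation, was at 1288, 1350.4, 1305 and 1309.8 FPKM and hardly varied. The Obox genes are a family of close copies, so their single values are uncertain.

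Genes of growth factors, zona proteins and maternal effect mostly stayed within the rule. The 5 measured genes of the zona pellucida and oocyte coat had none past the rule and a median of -0.50 in the deletion and -0.51 in controls. Zp3, the zona gene with the highest level, stood at 4183, 5079.5, 2964 and 3756 FPKM and Zp2 at 2845, 3439, 1994 and 2073, with the highest value in the growing deletion library in each case. Oosp1, which encodes a secreted oocyte protein, was higher in both fully grown libraries (2481, 2123, 3742 and 3227 FPKM, 0.60). Of 11 growth factors and receptors only Bmp5 and Pdgfa were past the rule, in opposite directions. Gdf9 (2616, 2815, 2049 and 2321 FPKM), Bmp15 (759, 664, 836 and 751) and the gap junction gene Gja4 (464, 449, 463 and 357) lay within the rule. The 51 maternal effect genes had 2 lower (3.92%) and none higher, against 8.75% and 2.7% over all members. H1foo, the oocyte linker histone gene, stood at 5555, 4236, 5519 and 5163 FPKM, Uchl1, a ubiquitin hydrolase gene, at 4649.5, 5200.2, 4396 and 4886, and Zbed3 of the subcortical maternal complex at 4292, 5271, 3457 and 4269.8. The lower members were Kdm1b, a histone demethylase gene needed for maternal imprints (87.3, 91.1, 41.99 and 38.4 FPKM, -1.22), and Zfp36l2, which encodes a protein that promotes mRNA decay (4.94, 6.604, 0.646 and 1.21 FPKM, -1.78). The control changes were -1.04 and -1.85.

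Genes of mRNA storage and translational control had 5 lower of 38 (13.2%), and those of deadenylation and decay 3 lower of 30 (10.0%). Neither list had a higher member, and over all members 8.75% were lower. Nanos1, a translational repressor gene, stood at 11.8, 16.3, 6.19 and 4.2 FPKM (-1.74), and the gene of the cap-binding inhibitor Eif4ebp1 at 15.1, 22.9, 10.3 and 6.58 (-1.65). Both were highest in the growing deletion and lowest in the fully grown deletion library. Patl2, an oocyte RNA-binding protein gene, was at 73.4, 87.2, 31.4 and 27.5 FPKM (-1.63 and -1.20), and Pabpc1, the somatic poly(A)-binding protein gene, at 19.01, 36.8, 8.65 and 12.1 (-1.53 and -1.05). The decay adaptor gene Tob1 stood at 19.6, 25.98, 7.42 and 6.88 FPKM (-1.78 and -1.29). Its relative Btg3 was near 0 in 2 libraries (0.0065, 5.74, 2.34 and 0.0057 FPKM), so its change of -2.75 rests on a value near 0. The abundant members lay within the rule. Btg4, an adaptor of maternal mRNA clearance, stood at 1668, 1299, 2349 and 1621 FPKM, and the masking protein gene Zar1 at 1578, 1582, 1085 and 1330.1.

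The 15 genes of N6-methyladenosine, a mark on mRNA, had 1 member in each direction. That is 6.67% each way, against 2.7% higher and 8.75% lower over all members. The reader Ythdf2, needed for maternal RNA clearance, was lower at 49.03, 60.4, 26.96 and 26.7 FPKM (-1.15 and -0.84), while the nuclear reader Ythdc1 was higher at 15.8, 10.6, 19.6 and 25.3 (1.18 and 0.30). The deletion value of Ythdc1 moved from the lowest of the 4 libraries to the highest. Wtap, a subunit gene of the methyltransferase, had the highest level of the list and a change of 0.84, from 318 to 568 FPKM.

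Cell cycle genes had 3 lower and 1 higher of 58 (5.17% and 1.72%), against 8.75% and 2.7% over all members. Ccne1, which encodes cyclin E1, stood at 8.02, 20.8, 3.297 and 3.905 FPKM (-2.15 and -1.07), the somatic kinase gene Wee1 at 13.6, 21.3, 6.63 and 5.41 (-1.80 and -0.93) and Cdk2 at 13.9, 19.3, 7.37 and 7.104 (-1.32 and -0.83). All 3 were highest in the growing deletion library, as were 90.9% of the 696 lower genes. Ccnb3, a cyclin of meiosis, was higher at 9.03, 4.03, 11.8 and 10.5 FPKM (1.20 and 0.35), with the growing deletion library below the other 3. The abundant members Pttg1, which encodes securin (4086, 4046, 4471 and 3618 FPKM), Mos, the kinase of meiotic arrest in the egg (850.1, 973, 778 and 629), and Cks2 (745, 664, 899 and 715) lay within the rule.

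Meiotic chromosome genes had 3 higher and 1 lower of 21 (14.3% and 4.76%), against 2.7% and 8.75% over all members. Mei4, needed for recombination breaks, stood at 6.76, 1.22, 11.5 and 8.17 FPKM (2.05 and 0.68), and Tex11, a crossover gene, at 3.39, 1.73, 8.57 and 5.201 (1.18 and 1.12). Tex12, of the synaptonemal complex, was at 18.04, 26.6, 59.8 and 58.6 FPKM (1.11 and 1.68). For Tex11 and Tex12 both fully grown libraries were above both growing ones, while for Mei4 the growing deletion library was the low one. The checkpoint ATPase gene Trip13 was lower, at 7.05, 8.63, 3.91 and 2.46 FPKM (-1.48 and -0.71). Tubulin and augmin genes had Haus7 and Tuba3b higher of 22 (9.09%) and none lower. The main tubulin gene, Tubb4b, stood at 1062, 1271, 1002 and 1169 FPKM.

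Few ribosome genes, the pathway in which Dcaf13 acts, were past the rule over growth in the deletion. Over all members 2.7% were higher and 8.75% lower. In the highest of 4 groups by mean FPKM (55.07 or more) calls were fewer, at 1.16% and 1.76%. The ribosome lists were not set against genes of like level, so their few calls are a description. None of 33 small subunit protein genes was past the rule, with a median of 0.17 in the deletion and 0.17 in controls. Their summed level was 23594, 27364, 26256 and 30537 FPKM. Of 51 large subunit protein genes only Rpl10l, a germ cell copy of Rpl10 whose reads cannot be told apart with certainty, was past it (11.8, 17.03, 4.7 and 4.61 FPKM, -1.68), and the median was 0.10 (0.13 in controls). The summed level of these genes was 32472, 38606, 35751 and 42128 FPKM, higher in the deletion than in the control library at each stage. Among 51 genes of 18S processing only Nob1, which encodes the nuclease of the final 18S cut, was past the rule, at 11.9, 21.2, 8.07 and 6.24 FPKM (-1.62 and -0.51). Its abundant members Emg1, a pseudouridine methyltransferase gene (414, 385, 534 and 512), and Imp3 (199, 278, 193 and 218) were not.

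Genes of 60S assembly and RNA polymerase I each had 4 lower members and none higher, against a lower share of 8.75% over all members. The 60S list had 4 lower of 49 (8.16%), close to that share. Nop2, an rRNA methyltransferase gene, stood at 4.62, 8.62, 1.54 and 1.83 FPKM (-1.76), Bop1 at 16.4, 32.1, 5.75 and 10.4 (-1.54) and Sdad1 at 3.27, 6.97, 2.16 and 2.77 (-1.08), while Znhit3 was at 51.6, 70.6, 26.1 and 32.7 (-1.09). In these 4 genes the growing deletion library was the highest. RNA polymerase I had 4 lower of 17 (23.5%). Ubtf, which encodes the upstream binding factor of ribosomal DNA, stood at 5.48, 13.9, 1.37 and 1.67 FPKM (-2.48 and -1.45), and Taf1c of the promoter selectivity factor at 1.54, 5.11, 0.456 and 1.303 (-1.41 and -0.80). The subunit genes Twistnb (9.96, 9.81, 4.61 and 3.61 FPKM) and Polr2h, shared with RNA polymerase II (32.9, 65.03, 21.9 and 26.9), were the other 2. The most abundant subunit gene, Polr1d, was at 571, 588, 618 and 653 FPKM and lay within the rule, and the list's median was -0.10. RNA polymerase II had Polr2h alone lower of 13, and its most abundant subunit gene Polr2j stood at 1713, 1883, 1609 and 1577 FPKM. Rn45s, the 45S precursor of ribosomal RNA, had the highest FPKM of any member, with 10409, 9914, 11442 and 13105 (0.40 and 0.14). It was highest in the fully grown deletion library and short of the rule, and this RNA is not normally polyadenylated. Of 18 host genes of small nucleolar RNA, which carry guides of rRNA modification in their introns, Ccnb1ip1 (1.37, 2.06, 3.82 and 6.76 FPKM, 1.34) and Snhg1 (30.5, 41.1, 30.4 and 84.5 FPKM, 1.02 against -0.01 in controls) were higher and none was lower. The value of Snhg1 stood out in the fully grown deletion library.

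Other RNA and translation lists had 1 to 5 lower members each and none higher. Lower shares were 11.8% (RNA exosome), 5.88% (translation factors), 3.57% (synthetases) and 6.67% (mitochondrial ribosome), against 8.75% over all members. The RNA exosome had 2 lower of 17 (11.8%), Exosc6 (20.3, 24.2, 9.202 and 8.06 FPKM, -1.48) and its cofactor C1d (6.26, 7.52, 2.05 and 1.89, -1.56), whereas its cofactor Mphosph6 reached 1564 FPKM from 1124. Translation factors had 3 lower of 51. They were Eif1a (4.904, 5.61, 1.61 and 1.29 FPKM), Abce1, the ribosome recycling ATPase gene (5.94, 8.98, 4.31 and 3.21), and Eif2b5 (5.47, 14.01, 3.85 and 5.41), all under 15 FPKM. Eif1ax, the main copy, was at 669, 650.1, 764 and 732 FPKM and was not past the rule, nor was the elongation factor gene Eef1a1 (724, 859.5, 684 and 729.7). Yars2, the mitochondrial tyrosyl-tRNA synthetase gene, was the only one lower of 28 synthetase genes (6.71, 10.7, 3.64 and 3.64 FPKM, -1.34). The mitochondrial ribosome had 5 lower of 75, led by Mrps34 (15.1, 28.7, 3.74 and 5.56 FPKM, -2.18) and Mrps26 (65.6, 126, 32.7 and 36.6 FPKM, -1.75), and its median was 0.10.

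Protein breakdown genes were near the general share of lower calls, with 9.30% (proteasome) and 7.5% (CRL4) against 8.75% over all members. The proteasome had 4 lower of 43. Psmb5, a catalytic subunit gene, stood at 172, 234, 124 and 97.2 FPKM (-1.26 and -0.47), Psmd13 at 9.66, 16.3, 3.35 and 5.76 (-1.35 and -1.29), and the assembly chaperone gene Psmg2 at 5.79, 8.58, 3.99 and 1.84 (-1.75 and -0.44). Psmb10, an immunoproteasome gene, was at 0.599, 5.47, 1.61 and 1.902 FPKM, above 2 FPKM in the growing deletion library alone. Of 40 genes of the CRL4 ligase, in which Dcaf13 serves, 3 were lower. The scaffold gene Cul4a stood at 9.25, 14.2, 4.95 and 5.53 FPKM (-1.22 and -0.78), the receptor gene Grwd1 at 7.31, 10.4, 4.2 and 4.46 (-1.06 and -0.68) and the cereblon gene Crbn at 22.9, 26.3, 19.8 and 12.4 (-1.02 and -0.20). Dcaf13 itself had the largest positive change of that list.

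Energy metabolism genes had few calls in the respiratory chain and lower calls in glycolysis. Over all members 8.75% were lower and 2.7% higher. In the highest of 4 groups by mean FPKM (55.07 or more) 1.76% were lower, against 2.44% of the oxidative phosphorylation genes. The energy lists were not set against genes of like level, so their counts are a description. Oxidative phosphorylation had 2 lower of 82, Uqcrc1 of complex III (30.1, 66.2, 12.3 and 13.6 FPKM, -2.21) and Cox4i2 of complex IV (24.3, 22.96, 12.5 and 10.6 FPKM, -1.05), and a median of 0.06. Atp5e, its most abundant member, stood at 2038, 1441, 2288 and 1839 FPKM. Glycolysis and pyruvate genes had 4 lower of 20 and a median of -0.39 (-0.21 in controls). After Ldhc these were Pfkl, a phosphofructokinase gene (3.57, 6.82, 2.13 and 2.46 FPKM), Pgam1, a phosphoglycerate mutase gene (10.8, 17.1, 6.96 and 7.15), and the glucose transporter gene Slc2a1 (18.2, 22.9, 6.89 and 10.7). Pfkl and Pgam1 had their high value in the growing deletion library. Ldhb, the main lactate dehydrogenase gene of the oocyte, carried most of the list at 6047, 6741, 4797 and 4875 FPKM (-0.47 and -0.33). Of 15 cholesterol synthesis genes only Pmvk, the phosphomevalonate kinase gene, was past the rule (7.76, 13.3, 2.57 and 2.27 FPKM, -2.13).

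Genes of sulphur and redox metabolism had calls in both directions, 5 lower and 2 higher of 30 (16.7% and 6.67%). Over all members the shares were 8.75% and 2.7%. With Cdo1 the glutathione peroxidase genes Gpx1 (47.2, 87.2, 22.5 and 27.3 FPKM, -1.64) and Gpx3 (33.4, 62.98, 20.3 and 25.1 FPKM, -1.29) were lower, as was Chac1, which breaks glutathione down (6.697, 5.21, 2.31 and 1.42 FPKM, -1.36). The fifth lower member was the glutathione transferase gene Gstt2, picked out after its values were seen (86.2, 90.3, 59.9 and 39.4 FPKM, -1.18). With Gstk1 the cystine importer gene Slc7a11 was higher (17.3, 9.15, 22.9 and 22.05 FPKM, 1.18). Gpx1 and Gpx3 peaked in the growing deletion library, and Slc7a11 was lowest there. The superoxide dismutase gene Sod1 held the highest level of the list, at 2749, 2954, 2855 and 3226 FPKM, within the rule. Zinc transport had 3 lower of 15 and a median of -0.36. Slc39a1 was followed by Slc30a6 (5.86, 9.47, 3.47 and 2.47 FPKM, -1.59) and Slc30a2 (2.62, 5.43, 1.48 and 1.62 FPKM, -1.29), while the abundant transporter gene Slc30a3 stood at 176, 217, 163 and 169 FPKM (-0.36). The stress response list had 3 lower of 32, Chac1, the heat shock factor gene Hsf2 (22.6, 23.2, 8.15 and 5.36 FPKM, -1.93 and -1.37) and the unfolded protein response gene Xbp1 (2.14, 5.34, 0.478 and 0.817 FPKM, -1.80 and -1.09).

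Egg surface and calcium genes had 3 lower and 1 higher of 20. Cd9, the tetraspanin gene needed for sperm fusion, was lower at a high level, with 356, 425, 231 and 186 FPKM (-1.19 and -0.62). Rab3a of cortical granule release (17.9, 34.6, 13.3 and 14.96 FPKM) and the calcium sensor gene Stim1 (3.12, 5.103, 0.923 and 1.12) were the other lower members, and Rgn the higher one. Folr4, the egg receptor gene for the sperm protein Izumo, stood at 428, 335, 476 and 444 FPKM within the rule. In the small RNA pathway 3 of 20 were lower and 1 higher. Ddx4, the Vasa helicase gene, stood at 48.5, 81.1, 19.2 and 17.1 FPKM (-2.18 and -1.30). Of the Piwi family, Piwil2 stood at 2.25, 5.46, 0.499 and 0.843 FPKM (-1.81) and Piwil1 at 3.68, 1.12, 4.11 and 5.25 (1.56). Each reached the minimum of 5 FPKM in 1 deletion library only. The minimum thus let each in through its high side, and their directions are a description. Pld6, an enzyme gene of piRNA processing, was at 5.08, 8.26, 3.48 and 3.27 FPKM (-1.12).

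Histone genes went in both directions. Of 13 replication-dependent histone genes measured, 4 were higher and 4 lower, and the median was -0.67 in the deletion and 0.27 in controls. Each share was 30.8%, against 2.7% higher and 8.75% lower over all members. Hist1h4c (7.75, 5.21, 12.6 and 19.2 FPKM), Hist1h3g (2.08, 3.29, 5.798 and 11.1) and the testis type gene Hist1h2ba (1.36, 3.07, 6.56 and 9.73) were highest in the fully grown deletion library. Hist1h4d was too, at 17.9, 17.02, 13.5 and 35.6 FPKM, with a negative change in controls (-0.38). The linker histone gene Hist1h1c (3.35, 8.08, 1.68 and 2.19 FPKM), Hist3h2a (4.51, 10.6, 5.64 and 3.4), Hist1h4h (15.6, 33.4, 19.4 and 12.2) and Hist1h4i (6.03, 8.44, 4.58 and 3.36) were highest in the growing deletion library. Hist1h2bc, the histone gene with the highest level, stood at 256, 244, 243 and 139 FPKM (-0.80) and was low in the fully grown deletion library only. These genes are near-identical copies and their RNA normally ends without a poly(A) tail, so these values are uncertain. Chromatin modifiers had 3 lower of 39 (7.69%). With Kdm1b they were the heterochromatin protein gene Cbx3 (22.96, 31.1, 11.6 and 11.7 FPKM, -1.33 against -0.92 in controls) and the deacetylase gene Sirt1 (14.3, 14.6, 5.66 and 5.02 FPKM, -1.37 against -1.20). The DNA methyltransferase gene Dnmt1 stood at 470.4, 574, 441 and 535 FPKM. Of the genes of the 2-cell embryo 3 were at the minimum and none was past the rule, with Sp110 at 494, 405, 343 and 305 FPKM.

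**Figure D3:**
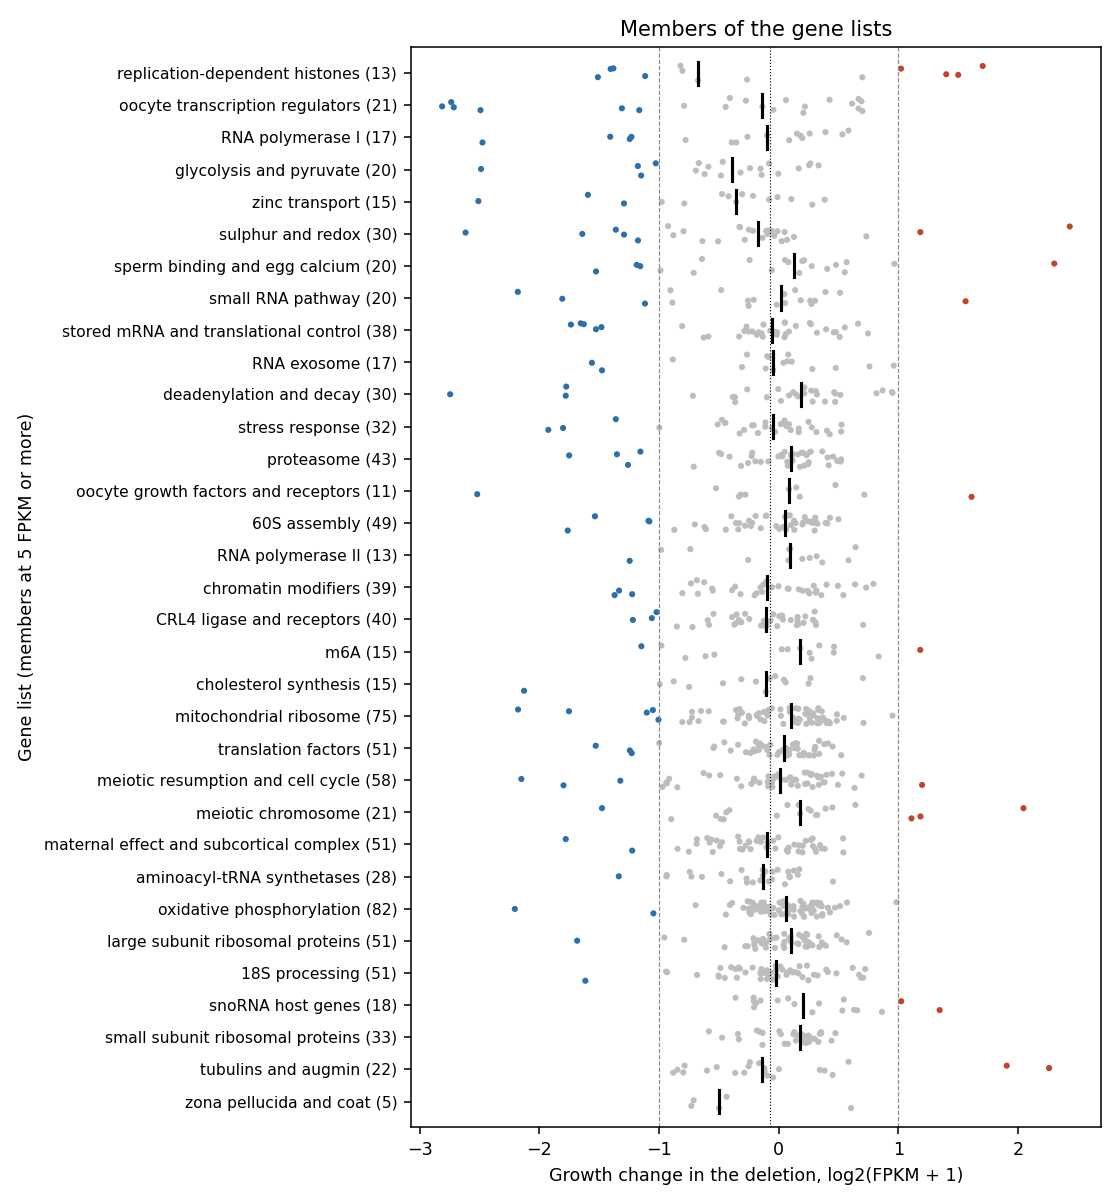
Each point is a member of a gene list at 5 FPKM or more, placed by its growth change in the deletion in log2(FPKM + 1), with the number of members beside the list's name and lists ordered by their share of lower genes. Black bars are list medians, the dotted line is the median of all members (-0.07) and dashed lines are the thresholds of the size rule. Blue points (lower) are spread over most lists, and red points (higher) are few, 18 in all, with 4 of them among the histones.

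Families that share a symbol stem gave a further reading. Among named genes 10 stems had at least 40 members. Zfp genes, which encode zinc finger proteins, had 20 lower and 1 higher of 127 (15.7% and 0.787%), and Slc genes, which encode membrane carriers, 17 lower and 4 higher of 106 (16.0% and 3.77%). Over all members the lower share was 8.75%. Over growth in controls the same genes gave 8 and 4 lower calls, where the lower share over all 7661 genes read was itself smaller, at 3.07%. The ribosomal Rpl stem (1 lower of 48) and the Atp stem of ATPases and ATP synthase (1 lower and 1 higher of 48) were at the other end.

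Growth in the deletion and growth in controls share no library, and their calls were set side by side. Of the 215 genes higher in the deletion, 32 were also higher in controls, which is 14.9% of the former and 37.6% of the 85 higher control genes. Of the 696 lower genes, 163 were lower in controls, 23.4% of the deletion list and 69.4% of the 235 of controls. Of the deletion lists, 26 higher and 193 lower genes were under 5 FPKM in both control libraries and could not be called there. In sign alone, 187 of the 215 and 663 of the 696 went the same way in controls. Over all 7661 genes read in controls 1.11% were called higher and 3.07% lower. In sign, 43.9% of them were above 0 and 56.0% below. The median control change was 0.44 for the 215 genes and -0.77 for the 696. For 95 of the higher and 130 of the lower genes the deletion change exceeded the control change by at least 1. This difference between genotypes was not tested.

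Among the named genes with the largest such differences, many had the growing deletion library apart from the others. Vrk3, a kinase gene, stood at 8.41, 31.7, 8.35 and 7.32 FPKM (-1.98 against -0.01 in controls), and the nucleosome-binding protein gene Hmgn3 at 6.899, 44.3, 5.703 and 9.81 (-2.07 against -0.24). Izumo4 was at 9.13, 26.3, 10.6 and 9.08 FPKM (-1.44 against 0.20). In these 3 genes the growing deletion library was high. It was the lowest for Prl8a2, a prolactin family gene (16.5, 1.61, 20.3 and 8.35 FPKM, 1.84 against 0.29), and for Agpat9, an acyltransferase gene (21.8, 2.23, 14.3 and 5.07 FPKM), whose change of 0.91 was short of the rule. In both of these the fully grown deletion library was the next lowest. Ublcp1, a proteasome phosphatase gene, was lowest in the fully grown deletion library, at 49.4, 61.8, 27.7 and 11.2 FPKM (-2.36 against -0.81). Snhg9, a host gene of small nucleolar RNA, differed mainly in controls (6.797, 19.96, 47 and 31.4 FPKM, 0.63 against 2.62), as did C1qb of the complement system (72.1, 23.4, 35.1 and 32.4 FPKM, 0.45 against -1.02) and Pglyrp1, a peptidoglycan recognition protein gene (28.5, 9.04, 14.4 and 14.6 FPKM, 0.63 against -0.94).

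**Figure D4:**
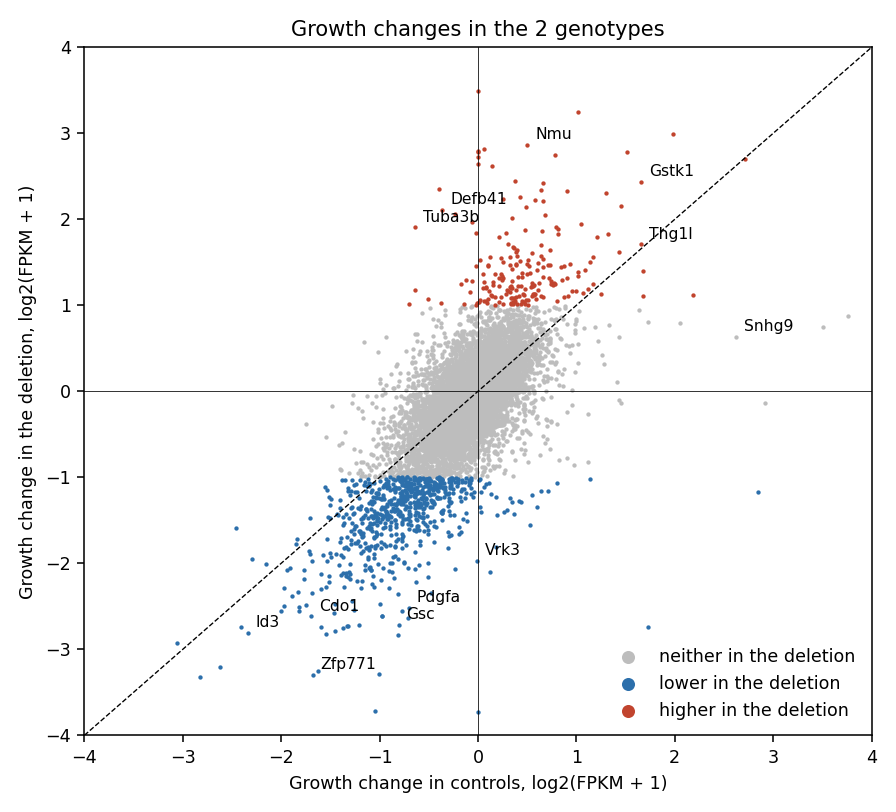
Each point is a member, with its growth change in controls on the x axis and in the deletion on the y axis, both in log2(FPKM + 1), and 21 members outside 4 on either axis are not drawn. The dashed line marks equal change, and lower genes (blue) lie mostly left of 0 and below that line, with Id3 near it and Vrk3 and Gsc farther from it.

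The place of the growing deletion library among the 4 bears on these counts, since that library enters every growth change of the deletion. It was the highest of the 4 for 42.1% of the members, against 14.8% for the growing control, 19.8% for the fully grown control and 23.4% for the fully grown deletion library. Among the 696 lower genes it was the highest for 90.9%, and among the 215 higher genes the lowest for 83.7%. Median FPKM of the lower genes was 8.26 in the growing control, 12.6 in the growing deletion, 4.40 in the fully grown control and 3.92 in the fully grown deletion library. For the higher genes the medians were 7.58, 3.66, 12.3 and 12.9 in that order. Shares and medians of the called genes are in part fixed by their choice on 2 of these libraries and are given as a description. The shares over all members are in part fixed too. Membership rests on the deletion libraries, so a gene that reached 5 FPKM in a control library alone was left out. The deletion comparison at the growing stage shares this library, with 210 genes higher and 201 lower of 8010 (2.62% and 2.51%). At the fully grown stage the deletion comparison gave 80 and 81 of 7413 (1.08% and 1.09%).

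Genes of small nucleolar and Cajal body RNA, which guide the chemical modification of ribosomal and small nuclear RNA, were mostly higher, a class picked out after their values were seen. Of 15 measured at 5 FPKM, 12 were higher and 1 lower in the deletion, where 2.7% and 8.75% of all members were. A gene listed at 0 in 1 deletion library is a member only through the other. Its call was then fixed by the minimum, and the counts are a description. Snord37 was listed at 0 in both growing libraries and stood at 1414 FPKM in the fully grown control and 1380.3 in the fully grown deletion library. Snora21, also listed at 0 in both growing libraries, stood at 49.3 and 47.3 FPKM in the fully grown ones. Snora47 was measured in all 4 libraries, at 6.42, 10.6, 233 and 124 FPKM. Snord95 was above 0 only in the fully grown deletion library (82.6 FPKM), and Scarna3a only in the growing deletion library (23.7 FPKM). These RNAs are short and lack a poly(A) tail, and a 0 in an FPKM table can be a failed estimate, so no fold is given. MicroRNA genes were mixed, with 8 higher and 4 lower of 19. In all, small RNA genes made up 20 of the 215 higher and 5 of the 696 lower genes.

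Shares of calls were also read by level and by the make-up of the transcript. Members were ranked and cut into 4 groups of like size. In the group with the lowest mean FPKM (2.55 to 8.81) 18.2% were lower and 5.73% higher, which says nothing of level, because a gene with a mean under 5 FPKM is a member only through its higher library. Above that group, where the minimum removes no gene, the lower share was 8.50%, 6.49% and 1.76% from low to high level and the higher share 2.31%, 1.61% and 1.16%. Transcript length, GC content and exon number came from GENCODE M21, with 7846 members measured. Lower genes had a median GC content of 52.7% and higher genes of 47.4%, against 49.8% over all. In the group with the highest GC content 14.4% were lower and 0.919% higher, and in that with the lowest 6.31% and 3.46%. Across genes the change correlated with GC content with a Spearman coefficient of -0.24 in the deletion and -0.33 in controls. The points share 2 libraries in each case and genes are not independent replicates. Of the 169 members with a single exon 23.1% were lower, against 6.22% of the 3089 with over 10 exons. The higher share was also larger in the former, at 5.92% against 1.97%. After removal of the trend of the change on GC content and length, 218 genes were higher and 562 lower. Among the genes named above Exosc6, Grwd1, Hist1h4d, Pfkl, Pld6, Psmb10, Rab3a, Slc2a1, Slc7a11, Snhg1, Taf1c and Tex12 were then short of the rule, with Pfkl and Slc2a1 leaving 2 lower glycolysis genes. The part of library chemistry in these relations was not tested.

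**Figure D5:**
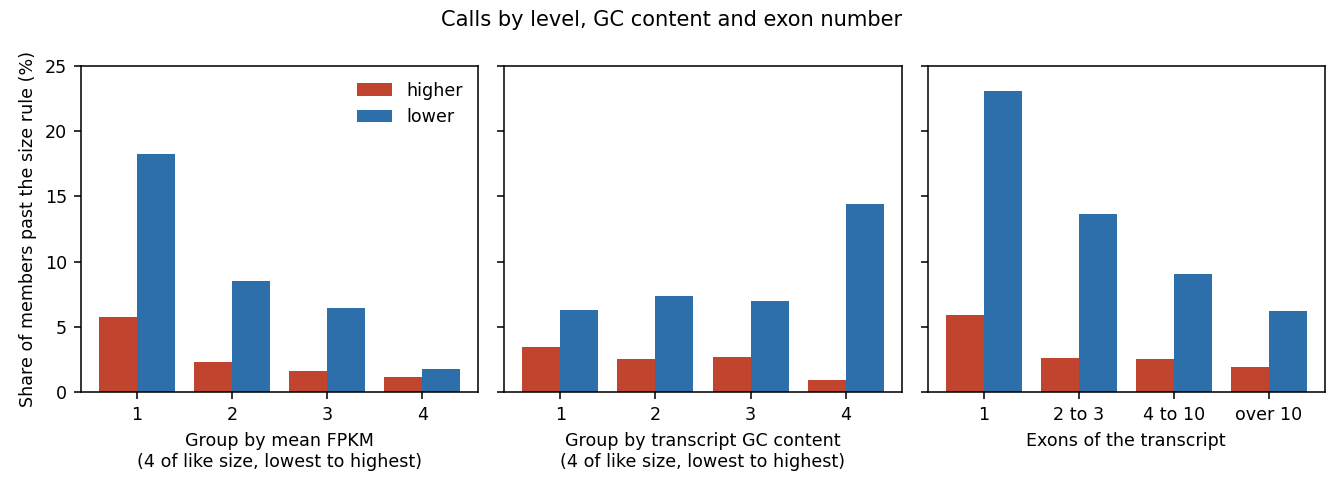
Bars give the share of members (%) called higher (red) or lower (blue), by 4 groups of like size in mean FPKM and in transcript GC content, each from lowest to highest, and by exon number. Lower calls fall from 8.50% to 1.76% over the upper 3 groups of level (the lowest group is raised by the minimum of 5 FPKM itself). They reach 14.4% in the group with the highest GC content and are most frequent in genes with a single exon (23.1%). Among the exon groups, higher calls too are most frequent in genes with a single exon (5.92%).

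Genes at the edges of the rule show what it separates. Just past a change of 1 were Lpcat2 (2.63 to 6.29 FPKM in the deletion) and Rit2 (3.15 to 7.305) upwards, and Ttc34 (16.3 to 7.65) and Spg7 (8.68 to 3.84) downwards. Just short of it were Ppp1r12a (20.1 to 40.9) and Xdh (6.41 to 13.8) upwards, and Eif4h (129 to 64.01) and Ggnbp2 (10.8 to 4.88) downwards. At the minimum of 5 FPKM, 1810049H13Rik and 4933430H15Rik were just inside, each at 5.01 FPKM in the growing deletion library. Cog7 and Blvrb were just outside, at 4.998 in the growing and 4.997 in the fully grown deletion library.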

How the data were processed

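Polyadenylated RNA of 4 mouse oocyte libraries, 1 per group, was measured by Smart-seq2 with Tn5 library preparation, per the labels' protocols. The deposited values are FPKM per gene symbol, in a whole-series table and in 4 tables with identical values. Tools named in the submitters' processing notes, with no roles, are Bowtie2 2.1.0, TopHat2 2.0.11, Cufflinks 2.2.1 and CASAVA 1.8, and the build is mm9. Gene models, strand use and the counting of reads with several matches are not given there. Starts in the file count from 0 and are printed counting from 1. Sequencing depth is unknown. From the commonest ratio among low genes, the fully grown deletion library had 1.04 times the depth of the growing deletion library.

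Symbols and values of the table run in different sort orders, and the values were paired with the symbols in byte order (digits, capitals, lower case). This kept the symbol of 4113 rows and changed it in 19122. It took the median of 20 oocyte markers from 8.62 to 1332 FPKM, and the mean sum of 13 chromosome Y genes, absent from oocytes, from 197 to 0.153 FPKM. Across low genes, the correlation of the smallest value with transcript length was -0.29 after re-pairing, against -0.10 when shifted by a row either way. The pairing is an inference from the values.

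Changes are differences in log2(FPKM + 1), and a call needed 5 FPKM in either library and a change of 1 or more. On simulated data shuffled in the assumed way, the steps restored the symbols and the planted changes, which were large against a small noise. This checks the code only and says nothing of the order of the deposited values or of the error of these libraries. Named genes were Dcaf13, the 15 largest increases and decreases at 20 FPKM or more without small RNA, predicted, clone-named and pseudogenes, up to 4 called members per direction and the 3 most abundant of each gene list, the 12 most abundant genes, the 10 largest differences from controls each way, genes at the edges of the rule and, per other cell type, its 3 most abundant markers. The genes and lists were chosen with earlier results of these data known. Transcript properties came from GENCODE M21 (7879 members matched, 702 through an older symbol) and promoters from RefSeq. Alternatives covered the pseudocount, minimum, threshold, scaling, pairing, GC and length trend and gene classes. Python 3.11.15, pandas 2.3.3 and numpy 2.4.6 were used.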

Additional observations from a re-analysis of the deposited data

Results flagged for a closer look

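In 3 genes the growth change was past the size rule in opposite directions in the 2 genotypes, which set them apart from every other gene called in both. All were picked out after their values were seen, and the difference between the genotypes was not tested. Fcgbp, which encodes a mucin-like protein that binds IgG Fc, stood at 4.61 FPKM in control and 14.0 in deletion oocytes that were growing, and at 11.3 and 6.41 in those fully grown, a change of -1.02 in the deletion and 1.14 in controls. Gm18756, a predicted gene, stood at 0.795, 21.4, 11.9 and 8.98 FPKM in the same order, a change of -1.17 in the deletion and 2.85 in controls. Mir3968, a microRNA gene, was listed at 0 in the growing control and fully grown deletion libraries and stood at 10.2 FPKM in growing deletion and 57.9 in fully grown control oocytes, a change of -3.49 in the deletion and 5.88 in controls. Both changes of Mir3968 are against a listed 0, which in an FPKM table can be a failed estimate, so they are no measured fold. For Fcgbp and Gm18756 the growing control library was the lowest and the growing deletion library the highest of the 4.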

How the results depend on the processing

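Decreases outnumbered increases in the deletion under the 9 alternatives that could change it, with 19.5% to 29.4% of calls higher. With a pseudocount of 5 there were 99 higher and 267 lower genes, with 19 and 38 shared with controls, where the counts were 53 and 53. A minimum of 1 FPKM, or none, gave 355 higher and 1101 lower with 54 and 285 shared and 133 and 425 in controls (the same by construction, since a call needs at least 1 FPKM), and a minimum of 20 FPKM gave 78 and 236 with 11 and 43 (34 and 67 in controls). A 1.5-fold threshold gave 633 and 1524 with 134 and 550 (276 and 823). Without small RNA, predicted and clone-named genes 17 higher genes were shared and controls had 39 higher and 204 lower. The deposited pairing moves symbols only and leaves these counts as they are. The other alternatives stayed within 1.5 times the reported counts. Of the genes named in the text, 49 were short of the rule with a pseudocount of 5, 15 without the GC and length trend, 4 with median-ratio rescaling (among them Crbn, -0.99, and Slc2a1, -0.996) and 4 with equal summed FPKM (among them Snhg1). The oocyte transcription regulators had 6 to 8 lower members under every alternative except the deposited pairing, which left 1. Their list was written with earlier results of these data known. With the deposited pairing many symbols read another row, and the sign of the change turned in Arhgap9 (0.076), Bop1 (0.13), Btg3 (0.32), Cmtm8 (-0.16), Cox4i2 (0.56), Cul4a (0.22), Hmgn3 (0.22), Izumo4 (0.84), Ldhc (0.47), Mrps26 (0.32), Psmb10 (0.022), Psmb5 (0.49), Psmd13 (0.071), Psmg2 (0.20), Slc30a2 (0.11), Yrdc (1.18), Ythdc1 (-0.98) and Znhit3 (0.18). No paired analysis was possible because each group held 1 library, and leaving out a library leaves no comparison. The depth is unknown, and a change among low genes can rest on few reads.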
